A study of Homo sapiens with 6 samples.

Results

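Of the human zinc-dependent histone deacetylase genes, 10 are described here (HDAC1 to HDAC9 and HDAC11), chosen by gene name from the 53712 gene names of the count table. All 10 passed the low-count filter. They were measured by RNA-seq in the human embryonic stem cell line H9, an established line kept in RSeT medium, which supports a naive-like pluripotent state. From 24 h after passage every culture received 10 nM DZNep, which blocks S-adenosylhomocysteine hydrolase and so methylation reactions, together with 5 nM TSA (trichostatin A), a drug that inhibits zinc-dependent deacetylases themselves. With these, 3 libraries came from cells given 2.5 µM UNC1999, which inhibits EZH2 and EZH1, the methyltransferases of Polycomb repressive complex 2, and 3 from cells given 2.5 µM UNC2400, a weakly active analog that differs by N-methylation. Both were given for 48 h. TSA and DZNep were in both groups, so the comparison says nothing of what either does to these genes, and UNC1999 against UNC2400 is the 1 pair of compounds compared. Whether replicates were separate cultures is not in the labels, and the p-values then measure only library-to-library spread, some of which may be technical.

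Histone deacetylases remove acetyl groups from lysines of histones and other proteins, which in chromatin goes with tighter packing and lower transcription. Class I enzymes (HDAC1, HDAC2, HDAC3 and HDAC8) are mainly nuclear, and the first 3 work inside corepressor complexes whose scaffold proteins they need for activity. Class IIa members (HDAC4, HDAC5, HDAC7 and HDAC9) have little catalytic activity of their own, bind MEF2 transcription factors and leave the nucleus when kinases phosphorylate them. HDAC6 of class IIb acts on cytoplasmic proteins such as alpha-tubulin, and HDAC11 is the only class IV member.

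Total counts ranged from 29699441 to 42345448 per library, and 17596 genes were tested. Levels are TMM-scaled CPM, that is counts per 1000000 after a scaling factor per library, given as mean ± SD. UNC1999 replicate 1 stood apart: on the first principal component of log2 CPM it had a score of 20.1, against 39.3 and 41.4 for the other UNC1999 libraries and -35.2 to -31.6 for UNC2400. Pluripotency markers fixed as a check were present in all libraries, with POU5F1 between 935 and 1419 CPM, NANOG between 101 and 117 CPM and SOX2 between 436 and 479 CPM. The 10 pluripotency markers summed to 8288 to 8353 CPM in UNC2400 and 7005 to 7760 CPM in UNC1999, with 5 lower and 1 higher in UNC1999 by edgeR's test (adjusted p below 0.05). With the offsets for span, exon length and GC content described below, 9 were lower and 1 was higher (median log2 fold change -0.33). Of all 17596 tested genes, 25.9% were called lower and 26.8% higher without the offsets, and 4415 and 4274 genes with them. The 10 fibroblast or feeder markers summed to 312 to 342 CPM in UNC2400 and 209 to 221 CPM in UNC1999, with 5 lower and 1 higher of 6 tested. Most of that sum was COL1A2, THY1, COL1A1 and PDGFRA, at 40.1 to 136.5 CPM on average in UNC2400, while DCN, LUM and FAP were at most at 0.0853 CPM in any library. Sums for 8 neural markers were 598 to 626 and 772 to 794 CPM, with 3 lower and 1 higher of 6 tested. Those of 10 trophoblast markers were 49.5 to 51.4 and 52.5 to 54.5 CPM, nearly all of it TFAP2C, and CGB was at 0 in all libraries. None of the 3 tested passed, and 1 was lower with the offsets. Sums of 8 endoderm markers overlapped, at 2.22 to 3.28 and 2.55 to 3.10 CPM, with 1 lower and 1 higher of 3 tested. AFP was lower, at a mean of 1.63 CPM in UNC2400 and 0.656 in UNC1999, and GATA4 was higher, at 0.291 and 0.754 CPM. The part of these shifts in the deacetylase results was not tested. In bulk RNA, fewer cells of a type and less RNA per cell cannot be told apart.

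Of the 10 deacetylase genes, 6 were lower in UNC1999 and 1 was higher by edgeR's quasi-likelihood test at an adjusted p below 0.05, and 3 did not pass. Over all tested genes, 52.7% were called, 25.9% as lower and 26.8% as higher. All 4 class I genes fell, HDAC1, HDAC2, HDAC3 and HDAC8. In class IIa, HDAC4 fell, HDAC7 rose, and HDAC5 and HDAC9 did not pass. HDAC6 fell and HDAC11 did not pass. The median log2 fold change, UNC1999 minus UNC2400, was -0.19 over the 10 genes and 0.02 over all tested genes. Regardless of direction, the median change over all tested genes was 0.28 (log2). HDAC1, HDAC2, HDAC3 and HDAC7 passed with smaller changes than that. For the 7 genes that passed, the UNC1999 libraries lay wholly above or below the UNC2400 libraries, as they did for 60.6% of all tested genes (29.7% lower and 30.9% higher). Without UNC1999 replicate 1 the counts were 6 lower and 2 higher. With offsets per library for the genomic span, exon length and GC content of genes, they were 4 lower and 3 higher. Of class I, HDAC1 and HDAC3 were then lower, while HDAC2 and HDAC8 did not pass (log2 fold change -0.10 and 0.03).

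**Figure D1:**
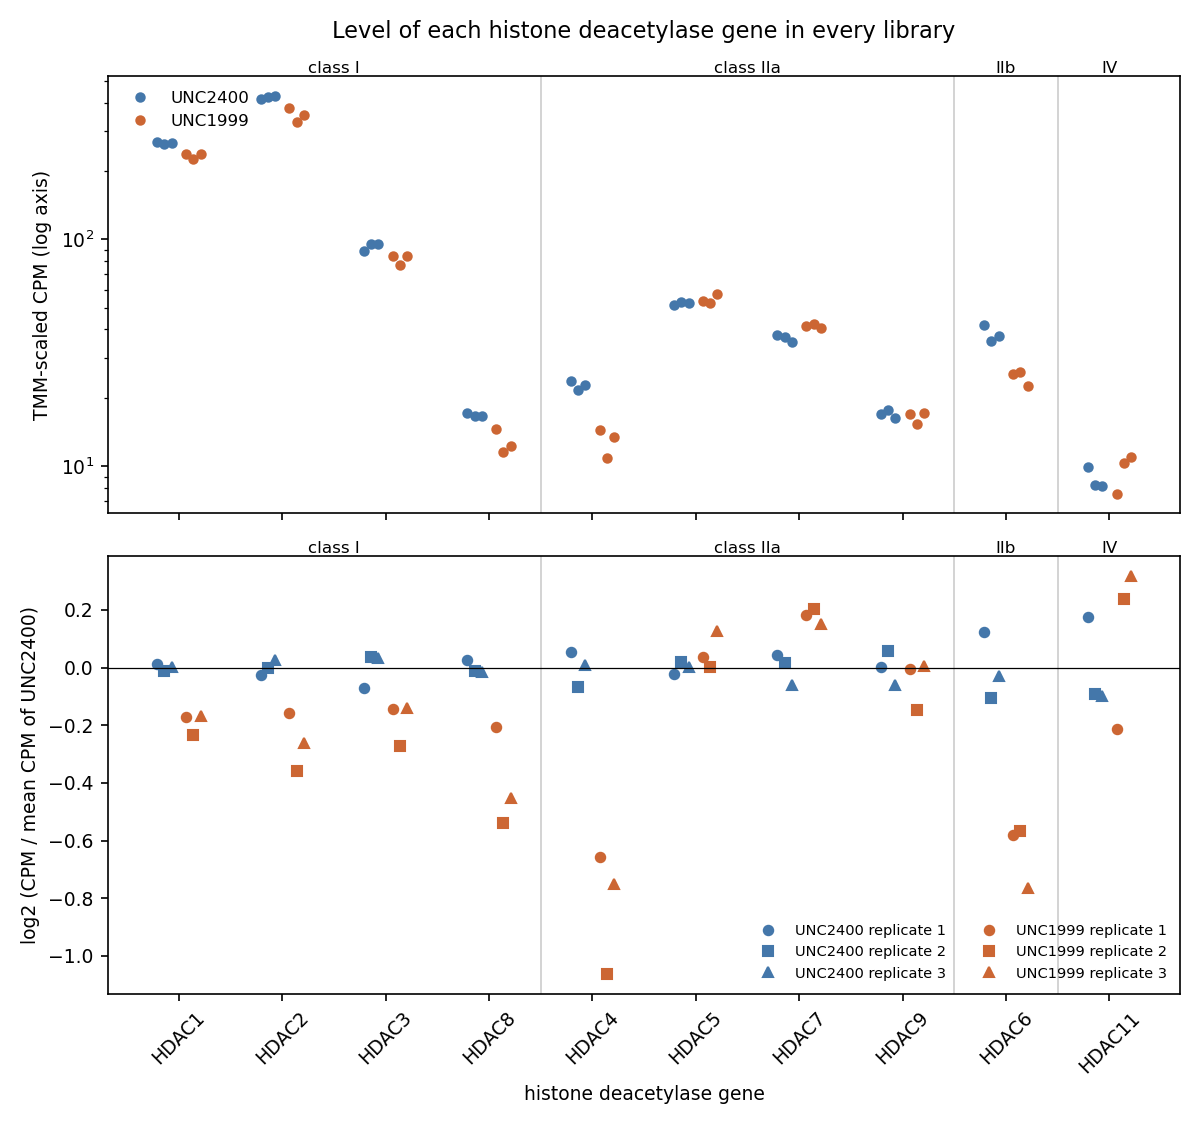
Level of each of the 10 genes in the 6 libraries: the upper panel gives TMM-scaled CPM on a log axis, the lower panel log2 of CPM over the UNC2400 mean of that gene, with 1 point per library and replicates by marker shape. HDAC4 and HDAC6 show the widest gap between groups, the 4 class I genes smaller gaps in the same direction, and HDAC11 has 1 UNC1999 library below and 2 above all UNC2400 libraries.

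Per kb of exon, HDAC1 had the highest level of the family and HDAC3 and HDAC2 came next. Lengths were the joined exons of the basic transcript set of GENCODE release 29. In UNC2400 the levels were 125 ± 0.964 CPM per kb for HDAC1, 47.4 ± 1.98 for HDAC3 and 41.5 ± 0.735 for HDAC2 (SD, n = 3 each). HDAC5, HDAC7 and HDAC6 formed the middle, at 9.79 ± 0.149, 8.24 ± 0.305 and 6.73 ± 0.544 CPM per kb. The lowest were HDAC11 at 2.56 ± 0.283, HDAC4 at 2.53 ± 0.107, HDAC8 at 1.48 ± 0.025 and HDAC9 at 1.31 ± 0.0539 CPM per kb. Among neighbours in this order, HDAC11 and HDAC4 overlapped between libraries and the other pairs did not. In UNC1999 the first 7 places were the same. HDAC4, HDAC9 and HDAC8 followed at 1.44 ± 0.204, 1.26 ± 0.0729 and 1.13 ± 0.138 CPM per kb, and each overlapped its neighbour among these 3. The order depends on the length used: per kb of the longest coding transcript, HDAC6 stood above HDAC7 in UNC2400 (9.12 and 8.93) and HDAC8, at 2.95, stood above HDAC4, at 2.53. In UNC1999 that length reversed the last 3, with HDAC8 at 2.25, HDAC9 at 1.70 and HDAC4 at 1.44. HDAC1 and HDAC2 together took 70.7% ± 0.305 (SD, n = 3) of the family's summed CPM in UNC2400 and 69.7% ± 0.568 (SD, n = 3) in UNC1999. The summed CPM of all 10 genes was 969, 971 and 979 in the UNC2400 libraries and 872, 800 and 847 in the UNC1999 libraries.

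RefSeq start sites (GRCh38.p14) were found for 9 of the 10 genes, in 19 windows of 250 bases before a start. Regions rich in CG dinucleotides are where vertebrate Polycomb complexes typically gather, so the CG content of these windows is given as a description. HDAC1 and HDAC8 are shown, as the class I genes with the highest and the lowest level per kb in UNC2400, 5′ to 3′ on the gene's strand, with each CG in capitals. The HDAC1 window is chr1:32291833-32292082 (plus strand) and the HDAC8 window is chrX:72572844-72573093 (minus strand).
HDAC1: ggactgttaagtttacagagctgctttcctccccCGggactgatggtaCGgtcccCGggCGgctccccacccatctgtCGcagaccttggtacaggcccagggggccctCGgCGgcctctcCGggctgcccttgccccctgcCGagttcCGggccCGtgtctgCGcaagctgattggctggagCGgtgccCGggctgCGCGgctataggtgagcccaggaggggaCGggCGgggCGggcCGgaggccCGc
HDAC8: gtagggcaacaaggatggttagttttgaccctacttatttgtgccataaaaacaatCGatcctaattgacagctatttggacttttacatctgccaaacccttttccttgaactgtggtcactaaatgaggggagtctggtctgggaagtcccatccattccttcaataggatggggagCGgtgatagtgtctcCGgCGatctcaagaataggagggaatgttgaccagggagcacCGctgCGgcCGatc
The HDAC1 window holds 21 CG dinucleotides and that of HDAC8 holds 7, against a median of 11 over 35116 such windows of all genes. HDAC3 and HDAC2 have 22 and 18. On both strands, with overlapping matches counted, the GC box GGGCGG occurs 3 times in the HDAC1 window, 1 time in that of HDAC3 and not in those of HDAC2 and HDAC8, and 42.6% of all windows hold it. The motif CCAAT occurs 1 time in the HDAC1 window and in none of the other 3, and 32.0% of all windows hold it. The windows of HDAC4, HDAC6, HDAC7, HDAC9 and HDAC11 hold 0 to 33 CG. Whether CG content bears on the fold changes was not tested.

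HDAC1 and HDAC2 are closely related paralogs that serve as the catalytic subunits of the SIN3, NuRD, CoREST and MiDAC complexes. HDAC1 had 268, 264 and 266 CPM in UNC2400 replicates 1 to 3 and 236, 226 and 237 CPM in UNC1999 replicates 1 to 3. All UNC1999 libraries were below all UNC2400 libraries, and the log2 fold change was -0.19 ± 0.05 (SE; adjusted p = 0.00337). It was -0.25 with the offsets, and the call held in all 15 alternatives. Its processed pseudogenes took few reads, HDAC1P2 0 to 8 counts per library and HDAC1P1 none, against 7720 to 11022 for HDAC1. For HDAC2 the UNC2400 libraries had 414, 421 and 429 CPM and the UNC1999 libraries 378, 329 and 352 CPM. The groups did not overlap, and the log2 fold change was -0.26 ± 0.06 (SE; adjusted p = 0.00113). With offsets for length and GC content the value was -0.10 and did not pass (adjusted p = 0.161). Reads of HDAC2 per read of HDAC1 were 1.54, 1.60 and 1.61 in UNC2400 and 1.60, 1.45 and 1.49 in UNC1999, which overlap.

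HDAC3 is the catalytic subunit of the NCoR corepressor complex. It had 88.4, 95.2 and 94.9 CPM in UNC2400 and 84.0, 76.8 and 84.2 CPM in UNC1999. The highest UNC1999 library was below the lowest UNC2400 library by a small margin, and the log2 fold change was -0.19 ± 0.05 (SE; adjusted p = 0.00823). The largest adjusted p over its 15 alternatives was 0.0465, without UNC2400 replicate 3. With the offsets the value was -0.32. In GENCODE 426 bases of HDAC3 exons face an antisense gene, and the strand setting of the counting is not given. HDAC8, which deacetylates the cohesin subunit SMC3, had 17.1, 16.6 and 16.6 CPM in UNC2400 and 14.5, 11.5 and 12.3 CPM in UNC1999. Its groups did not overlap and its UNC1999 replicate 1 was the nearest to UNC2400, for a log2 fold change of -0.39 ± 0.09 (SE, with an adjusted p of 0.00138). With the offsets the direction turned, to 0.03 (adjusted p = 0.769). In GENCODE, exons of HDAC8 share 1193 bases with another gene model on the same strand, and whether such reads were counted is not given.

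Class IIa did not move as one. HDAC4, a repressor of MEF2-dependent genes, had the largest change of the family without the offsets. It had 23.6, 21.7 and 22.9 CPM in UNC2400 and 14.4, 10.9 and 13.5 CPM in UNC1999. Every UNC1999 library lay well below every UNC2400 library, and the level in UNC1999 was 0.57 times that in UNC2400. The log2 fold change was -0.81 ± 0.09 (SE; adjusted p = 1.63e-06), at percentile 4.95 of all tested genes. With the offsets it was -0.27 and still passed (adjusted p = 0.00708), but HDAC9, HDAC6, HDAC7 and HDAC3 then had larger changes.

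HDAC7, known for its role in endothelial and lymphoid cells, was the 1 member that rose. It had 37.7, 37.0 and 35.1 CPM in UNC2400 and 41.5, 42.1 and 40.6 CPM in UNC1999, without overlap. The log2 fold change was 0.18 ± 0.06 (SE; adjusted p = 0.0121), a call that was lost without UNC2400 replicate 3 (0.15, adjusted p = 0.0824) and when no filter on low counts was used (0.16, adjusted p = 0.0661). With the offsets it was 0.35. In GENCODE 963 bases of HDAC7 exons face an antisense gene, and the strand setting of the counting is not given, so their reads cannot be told apart.

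HDAC5, a paralog of HDAC4 with the same partners, had 51.5, 53.1 and 52.5 CPM in UNC2400 and 53.6, 52.4 and 57.2 CPM in UNC1999. The groups overlapped, and the log2 fold change was 0.05 with a 95% interval of -0.06 to 0.17 (adjusted p = 0.409). With the offsets it was 0.23 and passed (adjusted p = 0.00144). HDAC9, of which some isoforms lack the catalytic domain, had 17.0, 17.7 and 16.3 CPM in UNC2400 and 17.0, 15.4 and 17.1 CPM in UNC1999. These overlapped as well, with a log2 fold change of -0.05 and a 95% interval of -0.21 to 0.11 (adjusted p = 0.616). With the offsets the direction turned and the value passed, at 0.74 (adjusted p = 8.78e-07). Counts per gene name do not separate isoforms.

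HDAC6, the tubulin deacetylase that also carries a ubiquitin-binding zinc finger, had the next largest fall after HDAC4 without the offsets and the largest with them. It had 41.7, 35.6 and 37.5 CPM in UNC2400 and 25.6, 25.9 and 22.5 CPM in UNC1999. All UNC1999 libraries lay below the lowest UNC2400 library, and the level in UNC1999 was 0.65 times that in UNC2400. The log2 fold change was -0.63 ± 0.07 (SE; adjusted p = 1.89e-06). It stayed between -0.68 and -0.57 in all 15 alternatives and was -0.57 with the offsets. HDAC6 and HDAC7 had similar read counts in UNC2400 and not in UNC1999: the ratio of HDAC6 to HDAC7 reads was 1.11, 0.963 and 1.07 in UNC2400 and 0.617, 0.614 and 0.556 in UNC1999. That pair was chosen after its values were seen.

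HDAC11, which removes long fatty acyl groups, had 9.90, 8.24 and 8.19 CPM in UNC2400 and 7.57, 10.3 and 10.9 CPM in UNC1999. UNC1999 replicate 1 was the lowest of the 6 libraries and the other UNC1999 libraries were the highest. The log2 fold change was 0.14 with a 95% interval of -0.13 to 0.41 (adjusted p = 0.386). Without UNC1999 replicate 1 it was 0.26 and passed (adjusted p = 0.0255). Its antisense gene HDAC11-AS1 had 0 to 2 counts per library. The remaining zinc-dependent member, HDAC10, is not among the 10 genes and was low, with 26, 32 and 20 counts in UNC2400 and 17, 25 and 16 counts in UNC1999 (log2 fold change -0.47, 95% interval -1.10 to 0.16; adjusted p = 0.201).

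The fold changes of all genes varied with genomic span, the distance from the first to the last base of a gene in GENCODE. The median log2 fold change was 0.20 for the 3227 tested genes up to 10 kb, 0.09 for those over 10 and up to 30 kb, and -0.05 for those over 30 and up to 100 kb. It was -0.23 for the 2317 genes over 100 and up to 300 kb and -0.56 for the 681 genes over 300 kb. HDAC4 and HDAC9 are in the last range, with spans of 353 and 915 kb, and HDAC8 spans 244 kb. In that range 65.6% of genes were called lower and the quartiles were -0.87 and -0.22, so HDAC4 at -0.81 lay within them and HDAC9 at -0.05 above. HDAC8 at -0.39 lay within the quartiles of its own range, -0.49 and 0.03. HDAC6 spans 23.6 kb and HDAC3 16.0 kb, a range where the median was above 0, and both fell. Of the genes over 10 and up to 30 kb, 18.1% were called lower and the quartiles were -0.14 and 0.33. HDAC3 at -0.19 lay just below these quartiles and HDAC6 at -0.63 far below. HDAC11, at 26.7 kb in the same range, was at 0.14 and did not pass. Offsets per library for span, exon length and GC content moved HDAC9, HDAC8 and HDAC4 up by the largest amounts, moved HDAC1 and HDAC3 down, and moved HDAC6 from -0.63 to -0.57. Which set of values is nearer to the change in transcription was not tested.

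**Figure D2:**
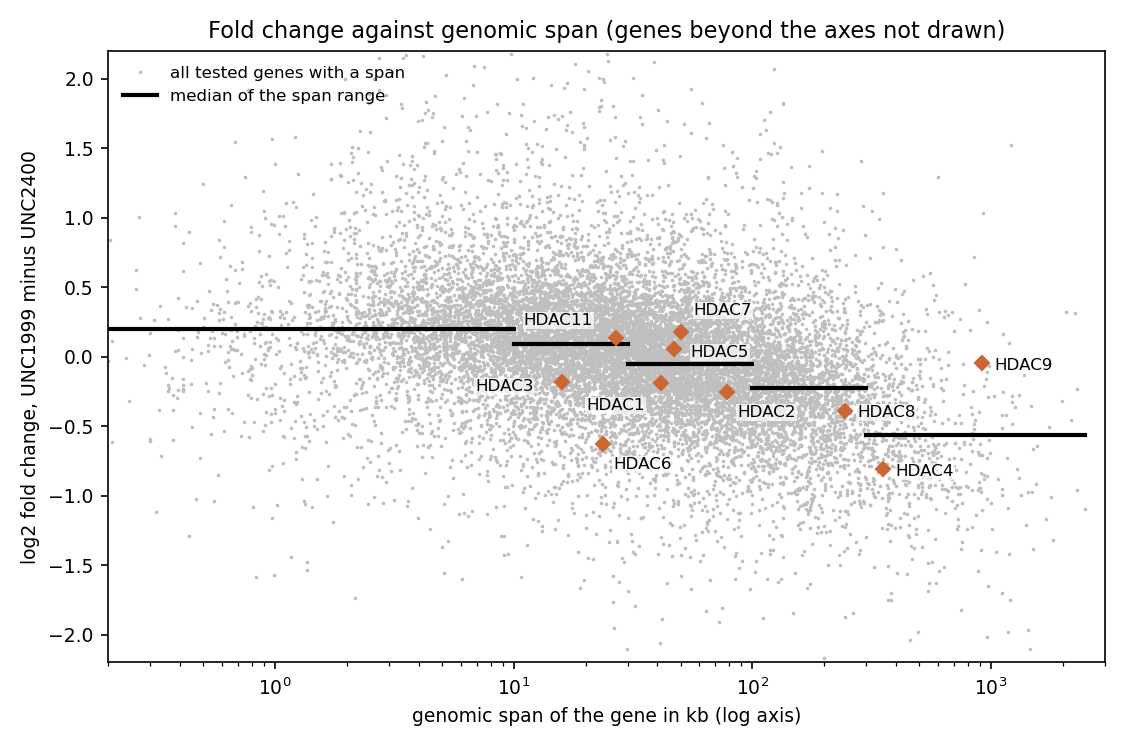
Log2 fold change (UNC1999 minus UNC2400) against genomic span in kb on a log axis: grey points are tested genes, black lines the median of each span range, and orange diamonds the 10 deacetylase genes. The medians go from 0.20 up to 10 kb to -0.56 over 300 kb. HDAC6 lies far below the line of its range and HDAC9 above. Of 14812 genes with a span, 94 lie beyond the axes.

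**Figure D3:**
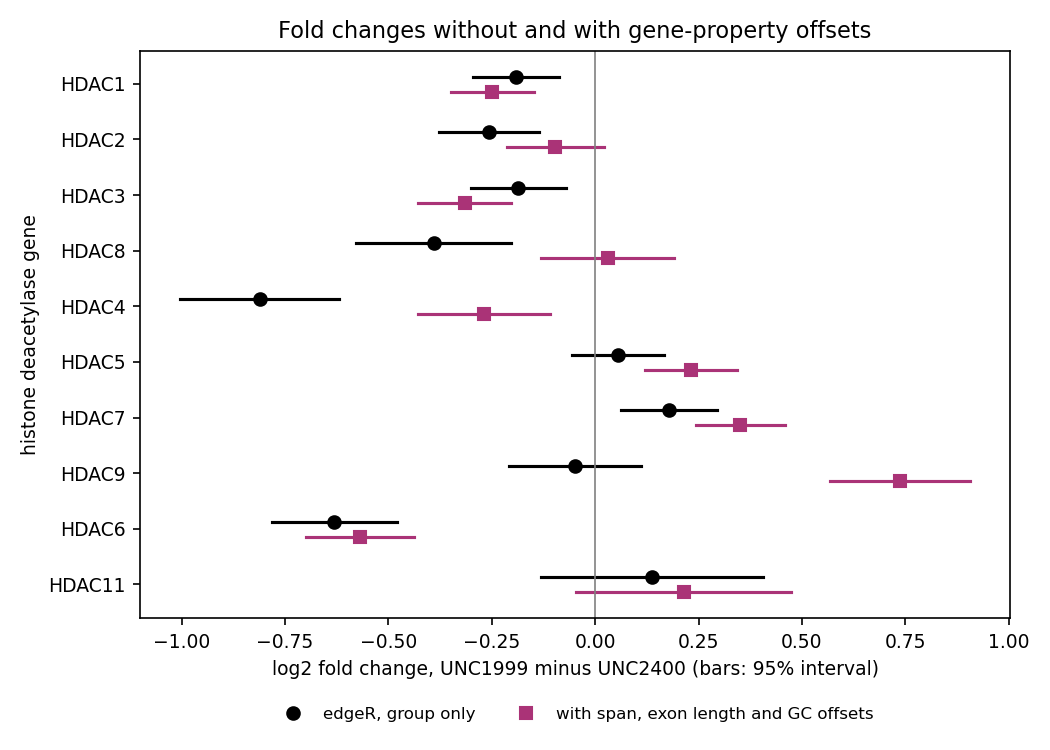
Log2 fold change (UNC1999 minus UNC2400) of each gene with its 95% interval, without offsets (black circles) and after offsets for genomic span, exon length and GC content (purple squares). The intervals of HDAC1, HDAC3, HDAC4 and HDAC6 lie below 0 and that of HDAC7 above 0 under both, while HDAC2, HDAC5, HDAC8 and HDAC9 move across the line of their call.

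The authors' deposited comparison table gave the same directions for the 10 genes and called the same 7 at an adjusted p below 0.05. Its log2 fold changes were -0.84 for HDAC4, -0.64 for HDAC6, -0.41 for HDAC8, -0.28 for HDAC2, -0.21 for HDAC1 and -0.20 for HDAC3, and 0.16 for HDAC7. The authors' deposited table gave 0.12 for HDAC11 with an adjusted p of 0.439, 0.04 for HDAC5 and -0.07 for HDAC9. In the authors' deposited log2 values, which are marked as batch-corrected, HDAC11 had 3.43, 3.05 and 2.99 in UNC2400 and 2.95, 3.34 and 3.38 in UNC1999. There UNC1999 replicate 1 was again the lowest library, and UNC2400 replicate 1 was the highest.

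Subunits of the complexes around the class I enzymes went both ways. The counts for the lists of related genes stand against 25.9% of all tested genes called lower and 26.8% called higher, and nothing particular to a list is read from them. With the offsets, 4415 of the 17596 tested genes were lower and 4274 higher. Of 14 tested SIN3 genes, 6 fell and 3 rose (median log2 fold change -0.12), or 7 and 2 with the offsets. The scaffold genes SIN3A and SIN3B fell by 0.15 ± 0.05 and 0.47 ± 0.06 and SUDS3 by 0.66 ± 0.06, while SAP30L rose by 0.52 ± 0.09 (log2, SE). SIN3A did not pass with the offsets (adjusted p = 0.845), nor without UNC2400 replicate 1 (0.0566) or UNC2400 replicate 3 (0.144). SIN3B was at -0.28 with the offsets. Of 13 NuRD genes, 5 fell and 3 rose (median -0.10), or 5 and 5 with the offsets. The remodelling ATPase genes CHD4 and CHD3 fell by 0.25 ± 0.06 and 0.66 ± 0.06 and CDK2AP1 by 0.60 ± 0.08, while MBD3 rose by 0.30 ± 0.06. CHD4 was at -0.16 with the offsets. BRMS1 of SIN3 and MBD2 of NuRD also rose, by 0.15 ± 0.05 and 0.18 ± 0.06. Both calls ended without any 1 UNC2400 library and without UNC1999 replicate 3 (adjusted p from 0.0587 to 0.282). They also ended with DESeq2 (0.0741 and 0.0584) and with no low-count filter (0.121 and 0.0857), and BRMS1 with the offsets (0.02, adjusted p = 0.797). The 3 genes that rose in each of these complexes then became as few as 1. Of 10 CoREST genes, 6 fell and none rose (median -0.20), or 5 and 1 with the offsets. They include the demethylase gene KDM1A, which fell by 0.29 ± 0.06, ZMYM2 by 0.39 ± 0.05 and HMG20B by 0.27 ± 0.05. ZMYM2 was at -0.15 with the offsets. Both MiDAC genes analysed passed: TRERF1 fell by 0.54 ± 0.08 and DNTTIP1 rose by 0.16 ± 0.06, a call that ended with DESeq2 (adjusted p = 0.0859), with no low-count filter (0.113), with the offsets (0.243) and when UNC1999 replicate 3 (0.210) or either of UNC2400 replicates 2 and 3 (0.0685 and 0.183) was left out. With the offsets TRERF1 was at -0.25. C14orf43 of the same list was not analysed here.

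NCOR1 encodes a corepressor that holds HDAC3. It had 182, 179 and 186 CPM in UNC2400 and 149, 126 and 132 CPM in UNC1999. All its UNC1999 libraries were below its UNC2400 libraries, and the log2 fold change was -0.43 ± 0.06 (SE; adjusted p = 1.32e-05). With the offsets it was -0.12 and narrowly missed the threshold (adjusted p = 0.0505). TBL1X, whose protein is a WD-repeat subunit of the complex, fell by 0.37 ± 0.07, and GPS2 rose by 0.25 ± 0.05. Neither passed with the offsets (adjusted p = 0.710 and 0.597). Of the 4 genes of the NCoR complex given here, 2 fell and 1 rose (median -0.25), and none fell and 1 rose with the offsets.

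**Figure D4:**
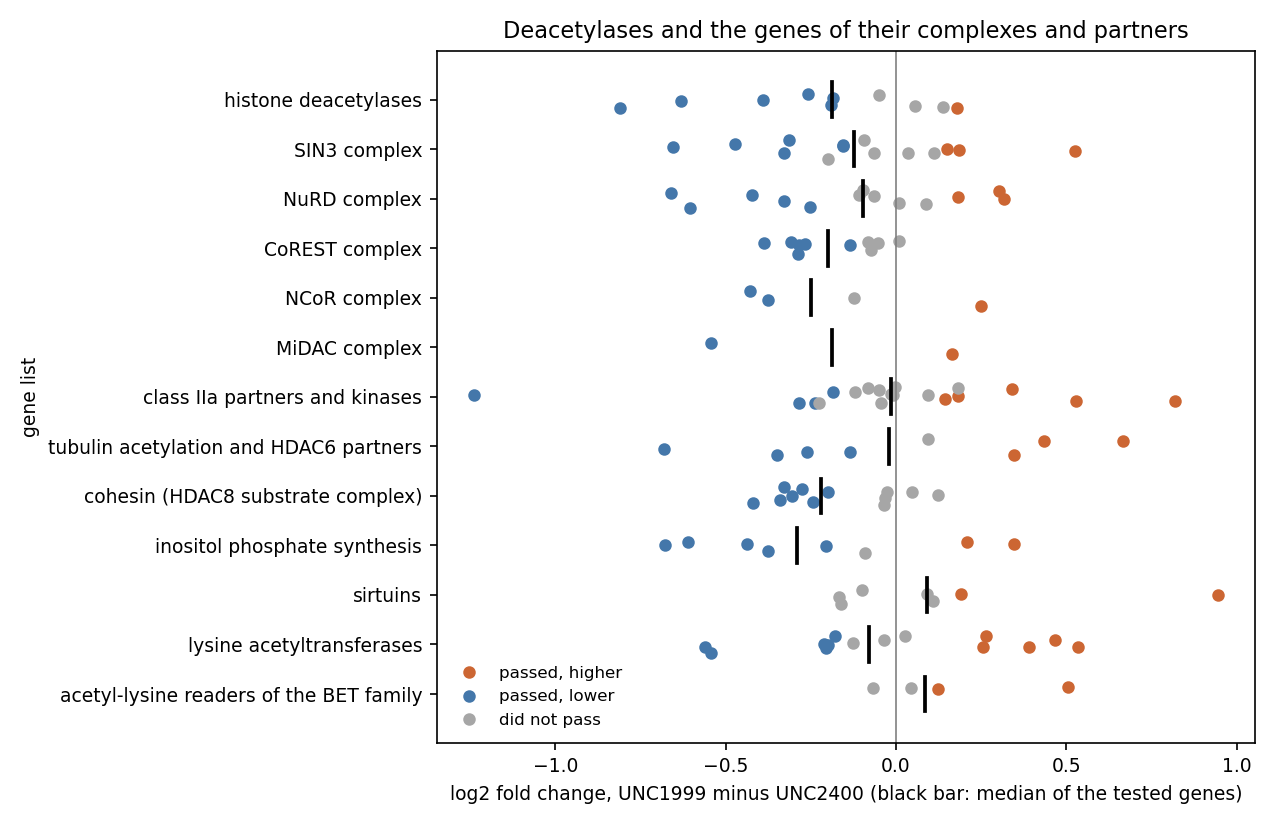
Log2 fold change (UNC1999 minus UNC2400) of tested genes in the deacetylase family and 12 lists of related genes, coloured by whether it passed edgeR's test, with the median of each list as a black bar. CAMK1D at -1.24 is the leftmost point, in the class IIa partners and kinases, and the deacetylase median is -0.19.

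Of 19 tested partners and kinases of the class IIa members, 5 rose, 4 fell and 10 did not pass (median -0.01). The 5 became 3 without UNC2400 replicate 2 or UNC1999 replicate 3, and the 4 became 2 without UNC2400 replicate 3. With the offsets 6 rose and 4 fell. SIK1 and SIK2, kinases that drive class IIa proteins from the nucleus, rose by 0.82 ± 0.09 and 0.34 ± 0.05, while their relative SIK3 fell by 0.24 ± 0.07 and the calcium-dependent kinase gene CAMK1D fell by 1.24 ± 0.11 (log2, SE). SIK3 was named after its value was seen. With the offsets SIK2 was at 0.53 and CAMK1D at -0.71. MEF2A, a binding partner of HDAC4, HDAC5, HDAC7 and HDAC9, fell by 0.28 ± 0.07, and did not pass with the offsets (adjusted p = 0.135). Of 8 genes linked to HDAC6 and tubulin acetylation, 4 fell and 3 rose (median -0.02), or 3 and 3 with the offsets. Only 2 fell when UNC1999 replicate 2 or either of UNC2400 replicates 1 and 2 was left out. CTTN, whose protein is an HDAC6 substrate, fell by 0.68 ± 0.07 and the segregase gene VCP by 0.35 ± 0.06, while the autophagy receptor gene SQSTM1 rose by 0.43 ± 0.07 and TPPP by 0.67 ± 0.15. Of 12 cohesin genes, 7 fell and none rose (median -0.22), and 2 fell and 2 rose with the offsets. The gene of the HDAC8 substrate itself, SMC3, did not pass (0.05, adjusted p = 0.475). Without UNC1999 replicate 2, 1 rose. SMC1A fell by 0.42 ± 0.06 and the loader gene NIPBL by 0.34 ± 0.06, the latter lost with the offsets (adjusted p = 0.464).

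Inositol phosphates bind between class I deacetylases and their corepressors. Of 8 genes of inositol phosphate metabolism, 5 fell and 2 rose (median -0.29), and 4 fell and 2 rose with the offsets. ITPK1 and PPIP5K2 fell by 0.61 ± 0.07 and 0.68 ± 0.08, and IP6K2 and IP6K1 rose by 0.34 ± 0.05 and 0.21 ± 0.05 (log2, SE). ITPK1 was at -0.27 with the offsets. The sirtuins, deacetylases that use NAD in place of zinc and are not targets of TSA, showed 2 of 7 higher and none lower (median 0.09), and 1 higher and 1 lower with the offsets. Without UNC1999 replicate 1, 2 were lower. SIRT4 rose by 0.94 ± 0.25 from 0.906 ± 0.213 CPM (SD, n = 3), and SIRT6 by 0.19 ± 0.06, which did not pass with the offsets (adjusted p = 0.20) or with no low-count filter (0.0660). It also did not pass when UNC1999 replicate 2 or either of UNC2400 replicates 1 and 2 was left out (adjusted p from 0.0672 to 0.0830). Among 14 lysine acetyltransferase genes, the opposing enzymes, 5 rose and 6 fell (median -0.08), and 6 and 2 with the offsets. KAT5 and KAT8 rose by 0.53 ± 0.07 and 0.47 ± 0.05, while KAT6B fell by 0.56 ± 0.06 and TAF1 by 0.21 ± 0.05, and with the offsets KAT6B was at -0.14 and the sign of TAF1 turned, to 0.04. Among 4 genes of BET proteins, which read acetylated lysines, 2 rose (median 0.08), and 3 with the offsets (median 0.22). BRD2 rose from 223 ± 8.62 to 317 ± 27.9 CPM (SD, n = 3 each), and BRD3 rose by 0.12 ± 0.05, a call that ended with RLE scaling, DESeq2 and no low-count filter (adjusted p = 0.0825, 0.108 and 0.243) and when any 1 of the 6 libraries was left out (0.0520 to 0.212).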

How the data were processed

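RNA-seq libraries were made from poly(A)-selected RNA (200 ng each) with a strand-marking kit, per the labels' protocols. The deposited count table holds whole counts per gene name, without normalization; the authors marked the file as free of duplicates and did not say what was removed. Per the submitters' processing notes the build was hg19 and the tools were Subread 1.5.0, featureCounts, TopHat2 2.0.13 and Trim Galore 0.4.0, with no roles stated. The annotation, the strand setting and the treatment of multiply matching reads were not stated by any source used here. The authors' deposited log2 values (20368 genes) carry a mark of normalization and batch correction. In the authors' deposited table of the comparison, per the file headers, there are limma-style columns of test scores, p-values and log2 fold changes.

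Groups and replicate numbers came from the titles. The 2-sided quasi-likelihood test of edgeR 4.0.16 (R 4.3.3) was run on the counts with TMM factors, the default low-count filter and group as the only term, with Benjamini-Hochberg adjustment over the 17596 genes tested and a threshold of 0.05. The fit was tested on simulated data. Offsets were splines of each library's relative log2 CPM (prior count 2) on log span, log exon length and GC content from GENCODE 29, matched by name for 84.2% of tested genes and all 10 members. Alternatives also included RLE and upper-quartile factors, DESeq2 1.42.0, limma-voom (limma 3.58.1), other filters, a replicate block and leaving out each library. Members and lists were chosen with earlier results of these data known. Named genes were all members, POU5F1, NANOG and SOX2, 5 scaffold or defining subunits (SIN3A, CHD4, KDM1A, NCOR1 and DNTTIP1), and up to 2 genes per list and direction with the smallest p. One gene of the NCoR list is not reported here.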

Additional observations from a re-analysis of the deposited data

How the results depend on the processing

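The counts of all genes called stayed within 1.5 times of 4714 higher and 4554 lower in all 15 alternatives (3642 to 4926 and 3951 to 5151). The number of members lower stayed between 4 and 6. The number of members higher, 1 as reported, was 0 with no low-count filter, 3 with length and GC offsets with or without the replicate block, and 0 to 2 when 1 library was left out. HDAC1, HDAC3, HDAC4 and HDAC6 kept direction and call in all 15 alternatives.

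With offsets, and with offsets and the replicate block, the log2 fold change was -0.096 and -0.098 for HDAC2, which no longer passed, 0.23 and 0.23 for HDAC5, which then passed, 0.030 and 0.027 for HDAC8 and 0.74 and 0.74 for HDAC9, both with the sign turned, and 0.036 and 0.036 for TAF1. HDAC7 had 0.16 with no low-count filter, and without 1 library 0.15 to 0.20. HDAC11 had 0.018 to 0.26 without 1 library. SOX2, -0.0067 as reported, was at 0.0078 with upper-quartile factors, between -0.071 and 0.026 without 1 library, and at -0.35 and -0.36 with offsets without and with the replicate block, where it passed (adjusted p = 0.000233 and 1.99e-05). Scaling moved the median of all genes to between 0.01 and 0.03. The cause of these differences was not tested.

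Same-numbered libraries were only weakly related (correlation of deviations from the group mean 0.02, 0.08 and 0.12). The labels do not say that they shared a culture, so the main fit did not take the numbers as pairs. Every library but UNC2400 replicate 1 correlated best with its own number. Genes with any read were alike by number in UNC2400 and UNC1999. They were 26918 and 26865 for replicate 1, 29385 and 29527 for replicate 2, and 26413 and 26730 for replicate 3. Whether same-numbered libraries shared a batch was not tested. With the replicate block alone, 4867 genes were higher and 4695 lower, and members stayed at 1 higher and 6 lower. At this depth a count of 0 allows up to 0.0718 to 0.104 CPM per library, counting error only; every member was well above it.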
